A study of Homo sapiens with 6 samples.

Results

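Genes for enzymes that add methyl groups to lysines of histones, or remove them, were followed in MDA-MB-231 cells depleted of BYSL. They were chosen by name, as the protein-coding genes whose symbol begins with KDM, KMT, SETD, NSD or EZH followed by a digit. Of 29538 genes in the count table, 39 met this rule, 22 named as methyltransferases and 17 as demethylases, and all 39 passed the filter on low counts, which left 16412 genes for testing. The name is wider than the activity: the gene descriptions deposited with the counts call KMT2E inactive and SETD3 an actin histidine methyltransferase. The cells, MDA-MB-231, are a human breast cancer line of invasive, mesenchymal type. The 3 siNC samples received a negative-control siRNA and the 3 siBYSL samples SI-BYSL-Homo-838, an siRNA against BYSL, which encodes a factor for assembly of the small ribosomal subunit. Each sample received 160 pmol of siRNA in a well, with a lipid reagent, and RNA was taken at 48 h for strand-specific poly(A) sequencing. A single siRNA was used against BYSL, so effects of losing BYSL and other effects of that siRNA cannot be told apart.

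Lysine methylation on histone tails marks the state of a gene. Methylation of lysine 4 of histone H3 (H3K4) goes with active promoters and enhancers and that of H3K36 with transcribed regions, while H3K27 and H3K9 methylation go with repression by Polycomb complexes and by heterochromatin. The methyltransferases take their methyl group from S-adenosylmethionine, and most carry a catalytic SET domain. The KDM1 demethylases use flavin, whereas the other KDM families contain a Jumonji domain that needs iron, oxygen and 2-oxoglutarate.

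The libraries held 27754883 to 32088817 counts each. BYSL was lower in every siBYSL library, at 15.7 to 17.4 CPM (counts relative to library size, scaled with TMM factors) against 94.5 to 104 CPM in siNC (log2 fold change -2.61, SE 0.067, edgeR adjusted p = 9.4e-09). Library siBYSL 3 stood apart from its group. A chi-square of its counts, divided by the degrees of freedom, reached 22 with siBYSL 1 and 13.5 with siBYSL 2, whereas the other pairs within a group gave 2.5 to 4.76. The mesenchymal genes VIM, CD44, FN1, AXL, CAV1 and MSN were abundant, with a summed level of 5530 to 5630 CPM in siNC and 4780 to 5090 in siBYSL; 4 of the 6 fell and 2 rose. The estrogen and progesterone receptor genes ESR1 and PGR were near 0, with means of 0.0238 and 0.257 CPM in siNC, whereas the keratin gene KRT8 was abundant (705 CPM). KRT8 was not called (0.03). Epithelial CDH1 rose from 4.48 to 9.18 CPM (1.04, edgeR adjusted p = 6.6e-05) and EPCAM from 14.4 to 20.9 (0.54, adjusted p = 1.6e-04). The receptor gene ERBB2 was present and rose from 51.3 to 61.9 CPM (0.27, adjusted p = 0.0031). Markers of other cell types were low in both groups: summed levels were 13.7 to 16.4 CPM in siNC and 16.6 to 17.8 in siBYSL for 5 fibroblast genes, 3.42 to 4.15 and 4.68 to 6.21 for 2 immune genes, and 5.08 to 5.86 and 6.47 to 6.67 for 3 endothelial genes. Of these, 2 passed the test, CD68 and PDGFRB, both higher. PTPRC, CDH5, VWF and THY1 were at 0.169 CPM or less in either group mean, and 2 globin genes summed to at most 0.139. DCN had a mean of 0.317 CPM in siNC. COL1A1 (6.87 CPM), PECAM1 (5.32), PDGFRB (4.61), CD68 (3.78) and LUM (2.89) were detected in siNC and made up most of these sums. The part of these markers in the enzyme gene differences was not tested, and in bulk RNA fewer cells of a type and less RNA per cell cannot be told apart.

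Of the 39 enzyme genes, 8 rose and 3 fell in siBYSL (quasi-likelihood test of edgeR, with p-values adjusted by Benjamini-Hochberg over all genes tested and called below 0.05). The risers were KDM2B, SETD7, KDM2A, KMT2C, KDM4B, KDM3B, EZH1 and KMT5B, and the fallers were KDM1A, KMT5A and EZH2. This was 20.5% higher and 7.69% lower, against a background of 18.5% higher and 18.4% lower over all genes, and 19.7% and 20.9% over protein-coding genes. The share that rose was thus near the background, and the share that fell was below it. Among 2300 protein-coding genes with a longest transcript at least as long as the median of the enzyme genes (6096 bases), 24.6% were higher and 16% lower. The median log2 fold change was 0.02 for the enzyme genes and 0.007 for all genes. The siBYSL values lay wholly above the siNC values for 10 enzyme genes and wholly below for 4, while 24.7% and 24.9% of all genes separated in these ways. All 11 calls came from genes whose groups did not overlap; KMT2D and KDM6B (above) and KDM3A (below) also separated without passing the test.

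**Figure D1:**
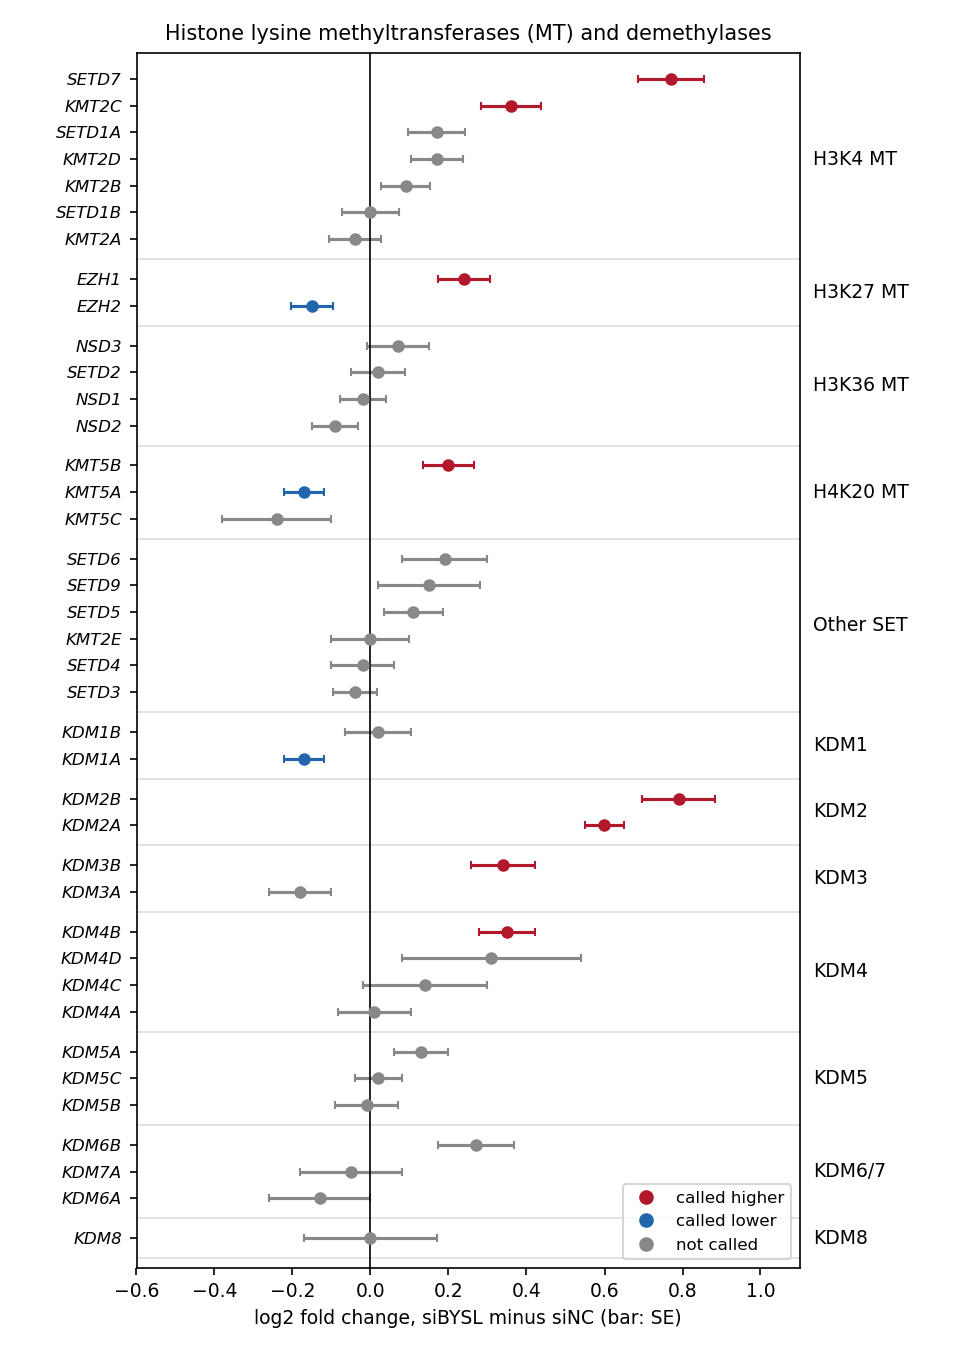
Log2 fold change (x axis, siBYSL minus siNC; bars are SE) of the 39 enzyme genes, grouped by the lysine they act on or by family, with MT for methyltransferase. KDM2B, SETD7 and KDM2A sit apart at 0.79, 0.77 and 0.60, and most others lie within 0.4 of 0.

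KDM2A, KDM2B, SETD7, KDM4B and KMT2C were called under each of 14 alternative settings of scaling, filter, test and libraries used. The call of KDM3B was kept in 13, that of EZH1 in 11 and that of KMT5B in 6. Those of KDM1A and KMT5A were kept in 7 each and that of EZH2 in 4. All 3 lower calls were lost without siBYSL 2 or without any 1 of the siNC libraries, which left 0 enzyme genes lower in edgeR (2 to 4 at an unadjusted p under 0.05), although DESeq2 and limma-voom on all libraries called 2 and 3. With library totals in place of TMM, 12 enzyme genes were higher and 0 lower (0 at an unadjusted p under 0.05), where 25% of all genes were higher and 12.1% lower, so that 67.37% of all calls were higher against 50.04% with TMM. Upper-quartile scaling gave 11 enzyme genes higher and 0 lower (2 lower at an unadjusted p under 0.05; 22.1% and 14.7% of all genes). Without siBYSL 3 the number of rises went from 8 to 13 (23.5% of all genes were then higher), with SETD5, NSD3, SETD1A, KDM5A and KDM6B added. Without siNC 3 it went to 5 (12.6%). The sign of the 11 differences was the same in all 15 settings tried.

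Both H3K36 demethylases of the KDM2 family rose. KDM2A (ENSG00000173120.15, chromosome 11, 67119269 to 67258087, plus strand, GRCh38) removes mono- and dimethyl marks and binds unmethylated CpG islands through a CXXC zinc finger. Its level was 68.7, 72.2 and 70.3 CPM in siNC 1 to 3 and 110, 106 and 105 CPM in siBYSL 1 to 3. The groups were far apart, and siBYSL 3 lay with the other siBYSL libraries. The log2 fold change was 0.60 (SE 0.050, adjusted p = 1.2e-05), a 1.51-fold rise. KDM2B (ENSG00000089094.19, chromosome 12, 121429097 to 121581015, minus strand) brings a variant Polycomb complex, PRC1.1, to CpG islands. It stood at 18.5, 18.8 and 18.2 CPM in siNC and 34.7, 34.0 and 27 CPM in siBYSL (0.79, SE 0.094, adjusted p = 1.0e-04). Its siNC values were close together, and siBYSL 3 was the lowest of the siBYSL libraries but still above them all.

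The siRNA itself is shown because its strands can pair with other transcripts through the seed, bases 2 to 8 of the strand loaded into Argonaute. Sites were sought for the seed of the antisense strand only, and matches to the seed of the sense strand were not examined. The antisense strand, with its seed in capitals, was as follows.
BYSL siRNA antisense strand: uAUUCAGCaacgucaucuctt
The matching DNA heptamer, GCTGAAT, occurred in the longest annotated 3′ UTR of 5 of the 39 enzyme genes (12.8%), against 1549 (11.9%) of the 13067 tested genes for which a 3′ UTR is annotated. The sites are given with 10 bases before and 11 after, on the strand of the transcript and with the heptamer in capitals.
KDM2A, chr11:67256816-67256843, plus strand: cttccaatctGCTGAATcttttgactgc
KMT2C, chr7:152135649-152135676, minus strand: ccaaatggagGCTGAATtttttcttcag
KMT5B, chr11:68155450-68155477, minus strand: tcatttttcaGCTGAATtttagtaactt
KDM5B, chr1:202726910-202726937, minus strand: gtgtgatgatGCTGAATttaaagagaat
NSD2, chr4:1944017-1944044, plus strand: attggcatcaGCTGAATaaccaggggca
Only the NSD2 site is followed by an A, which makes it the octamer GCTGAATA. It was read from transcript NSD2-212 and starts at 1944027, whereas the gene extends to 1982207. Whether the other NSD2 transcripts hold it was not examined. Of these 5 genes, KDM2A, KMT2C and KMT5B rose, and KDM5B and NSD2 were not called, at -0.01 and -0.09. Their median log2 fold change was 0.20, whereas all tested genes with the heptamer had a median of -0.10 and those without it 0.01. KDM1A, KMT5A and EZH2, which fell, hold no heptamer in this region. The part of the siRNA's seed in any difference was not tested.

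Of 10 tested partners of KDM2B in PRC1.1, 1 rose and 2 fell, against 18.5% and 18.4% of all genes, with a median of -0.04. RYBP, which stimulates the ubiquitin ligase of the complex, fell from 45.9, 43.8 and 45.0 CPM in siNC to 20.4, 19.3 and 18.4 CPM in siBYSL (-1.21, SE 0.063, adjusted p = 8.0e-07). The groups were widely separated. Its 3′ UTR holds 2 heptamers that match the seed, the first of them an octamer.
RYBP, chr3:72375197-72375224, minus strand: tttattaattGCTGAATatataataacc
RYBP, chr3:72372735-72372762, minus strand: cttctttccaGCTGAATccagactcaga
YAF2, the paralogue that can take the place of RYBP, rose from 13.6 ± 0.27 to 17.6 ± 0.78 CPM (SD, n = 3 each; 0.37, adjusted p = 0.0023) and has no such site. The ratio of RYBP to YAF2 counts, which does not depend on library scaling, went from 3.29 ± 0.12 to 1.1 ± 0.10, with no overlap. PCGF1, the Polycomb ring-finger subunit that defines PRC1.1, fell from 24.4 ± 0.57 to 18.2 ± 2.4 CPM (-0.42, adjusted p = 0.0040). The ubiquitin ligases RING1 and RNF2 stood at 0.04 and 0.19 and the corepressors BCOR and BCORL1 at 0.13 and 0.05, all uncalled. Without siBYSL 3, 3 of the 10 partners were called higher (23.5% of all genes).

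**Figure D2:**
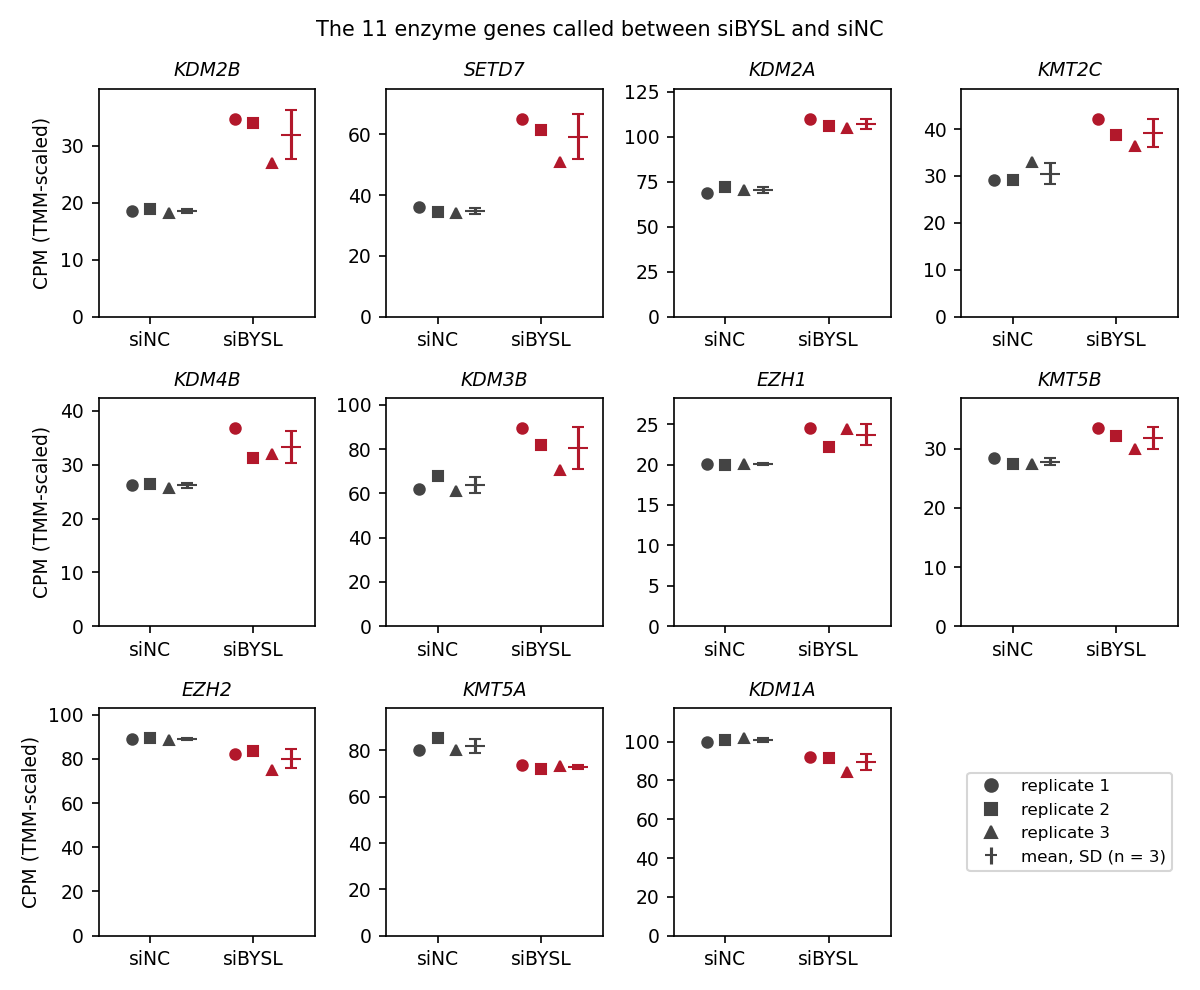
CPM in each library (points, 3 per group) of the 11 enzyme genes called between siNC and siBYSL, with mean and SD beside them; each vertical axis starts at 0. In all 11 panels the groups do not overlap, and the distances relative to the siNC level of each gene are widest for KDM2B, SETD7 and KDM2A.

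Of 7 methyltransferases of H3K4, 2 rose (28.6%, against 18.5% of all genes) and the other 5 were not called. SETD7 (ENSG00000145391.14, chromosome 4, 139495941 to 139606699, minus strand) adds a single methyl group to H3K4 and to several proteins that are not histones. It stood at 36, 34.4 and 34.3 CPM in siNC and 65.2, 61.6 and 51.1 CPM in siBYSL (0.77, SE 0.085, adjusted p = 6.6e-05). All siBYSL libraries were high, siBYSL 3 the least. KMT2C (MLL3), which methylates H3K4 at enhancers, rose from 29.2, 29.2 and 33.0 to 42.2, 38.7 and 36.3 CPM (0.36, SE 0.076, adjusted p = 0.0039). Its closest relative KMT2D (MLL4) had 35.4, 38.2 and 38.0 CPM in siNC and 41.2, 39.3 and 44.7 in siBYSL. These groups did not overlap, but the difference of 0.17 (SE 0.067) missed the threshold (adjusted p = 0.073). The promoter-associated KMT2A (MLL1) had 55.9, 59.9 and 58.1 CPM in siNC and 61.7, 54.4 and 53.2 in siBYSL, and KMT2B (MLL2) had 30.1, 32.3 and 29.6 against 33.7, 31.5 and 33.1. Both pairs of groups overlapped (-0.04, SE 0.067, and 0.09, SE 0.063). The catalytic subunits of the SET1 complexes, SETD1A and SETD1B, which place much of the trimethyl mark at promoters, were at 0.17 (adjusted p = 0.090) and 0.00 (adjusted p = 0.99).

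These enzymes work in complexes known as COMPASS, with some subunits shared and others specific to 1 form. Of 14 tested subunits 2 rose and 1 fell (14.3% and 7.14%, against 18.5% and 18.4% of all genes), and the median was -0.01. BOD1, a phosphatase regulator that also occurs with SETD1B, rose by 0.28 (adjusted p = 0.0015), and HCFC1, the host cell factor that joins SET1 and MLL complexes, by 0.21 (adjusted p = 0.017). PSIP1, which tethers the KMT2A-menin complex to chromatin, fell by 0.20 (adjusted p = 0.031). WDR5, the subunit that binds the catalytic proteins, had 90.7 ± 2.0 CPM in siNC and 86.6 ± 3.3 in siBYSL (-0.07, adjusted p = 0.34). The count of rises was 1 without siNC 2 or siNC 3 and 4 without siBYSL 3, and 2 subunits fell without siBYSL 3; the call of PSIP1 was lost without any 1 siNC library or siBYSL 2.

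Of 5 demethylases of H3K4, KDM1A fell and the others were not called (18.5% of all genes rose and 18.4% fell). KDM1A (LSD1), the flavin enzyme of CoREST complexes, stood at 100, 101 and 102 CPM in siNC and 92.3, 91.3 and 84.5 CPM in siBYSL. The groups were separate but close, and the log2 fold change was -0.17 (SE 0.052, adjusted p = 0.023). Its relative KDM1B was at 0.02 (SE 0.085). The KDM5 genes, which remove di- and trimethyl marks, were not called: KDM5A stood at 0.13, KDM5B at -0.01 and KDM5C at 0.02, with SEs of 0.061 to 0.080. None of these 3 reached an unadjusted p under 0.05, and DESeq2 and limma-voom called 0 as well. KDM5A was called higher without siBYSL 3 (0.19, adjusted p = 0.014) and with library totals (0.21, adjusted p = 0.046).

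Of 13 subunits and recruiters of the LSD1 complexes, 5 rose and 2 fell (median 0.21). This was 38.5% and 15.4%, against 18.5% and 18.4% of all genes. RCOR1 (CoREST), the scaffold that KDM1A needs to act on nucleosomes, fell from 52.9, 57.1 and 58.5 CPM to 48.0, 45.4 and 34.9 CPM (-0.39, SE 0.10, adjusted p = 0.012). The groups did not overlap, and siBYSL 3 was the lowest; the call was lost without siNC 3 (adjusted p = 0.057). The deacetylase HDAC1 rose by 0.32 (adjusted p = 4.9e-04), ZMYM3 by 0.38 (adjusted p = 6.1e-04), and PHF21A, a reader of unmethylated H3K4, by 0.39 (adjusted p = 0.0011). In the NuRD complex, which also takes up LSD1, MTA1 rose by 0.43 (adjusted p = 1.9e-04) and MTA2 fell by 0.28 (adjusted p = 0.0010). HMG20B, a DNA-bending subunit of the CoREST complex, rose by 0.26, a call lost without siNC 2 or siNC 3.

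The alternative catalytic subunits of Polycomb repressive complex 2 (PRC2), which methylates H3K27, went in opposite directions by small amounts. EZH2, the subunit of dividing cells, stood at 89.2, 89.6 and 88.7 CPM in siNC and 82.0, 83.4 and 75.1 CPM in siBYSL (-0.15, SE 0.055, adjusted p = 0.048), a call lost when any library but siBYSL 3 was left out. EZH1, which is more prominent in resting cells, stood at 20.1, 19.9 and 20.1 CPM in siNC and 24.5, 22.2 and 24.4 CPM in siBYSL (0.24, SE 0.067, adjusted p = 0.016), a call lost without any 1 siNC library. In both genes the siNC libraries were nearly equal and the siBYSL libraries more spread. The ratio of EZH2 to EZH1 counts was 4.45, 4.50 and 4.42 in siNC and 3.34, 3.75 and 3.08 in siBYSL. A two-sided exact permutation test over the 6 libraries gave p = 0.10, the smallest that 3 against 3 allows (adjusted p = 0.12 over 7 pairs of paralogues, chosen after their values were seen). Among these pairs, only the ratio of KDM2A to KDM2B overlapped between the groups. It was 3.81 ± 0.086 in siNC and 3.38 ± 0.43 in siBYSL (exact permutation p = 0.30).

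Of 11 tested PRC2 partners 3 rose and 2 fell (27.3% and 18.2%, against 18.5% and 18.4% of all genes), with a median of 0.11. EED, which reads trimethylated H3K27 and is needed for activity, fell from 55.9, 56.9 and 56.3 CPM to 41.4, 37.3 and 38.8 CPM (-0.53, SE 0.058, adjusted p = 6.7e-05). The groups were well separated. Its 3′ UTR holds 1 seed-matched heptamer, in capitals.
EED, chr11:86278638-86278665, plus strand: atcaggctgaGCTGAATgtagtgatgtt
SUZ12, the other obligatory core subunit, did not pass the test (76.7 ± 2.8 CPM in siNC, 77.5 ± 10 in siBYSL; 0.01, adjusted p = 0.91), and its siBYSL values ran from 86.8 in siBYSL 1 to 67.0 in siBYSL 3. Of the accessory subunits, JARID2, which recruits PRC2.2, rose from 23.0 ± 1.0 to 34.7 ± 3.0 CPM (0.59, adjusted p = 1.7e-04), and LCOR, whose locus also encodes a PRC2.1 subunit, rose by 0.62 (adjusted p = 1.3e-04). The PRC2.1 subunit PHF19 fell from 130 ± 2.0 to 103 ± 2.7 CPM (-0.34, adjusted p = 3.3e-04). AEBP2 (0.19), EPOP (0.13), PHF1 (0.11) and MTF2 (-0.15) were not called. RBBP4, a histone-binding subunit shared with several complexes, rose by 0.30. The more abundant RBBP7 was not called, at 306 ± 1.3 CPM in siNC and 297 ± 9.2 in siBYSL (-0.04, adjusted p = 0.53).

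**Figure D3:**
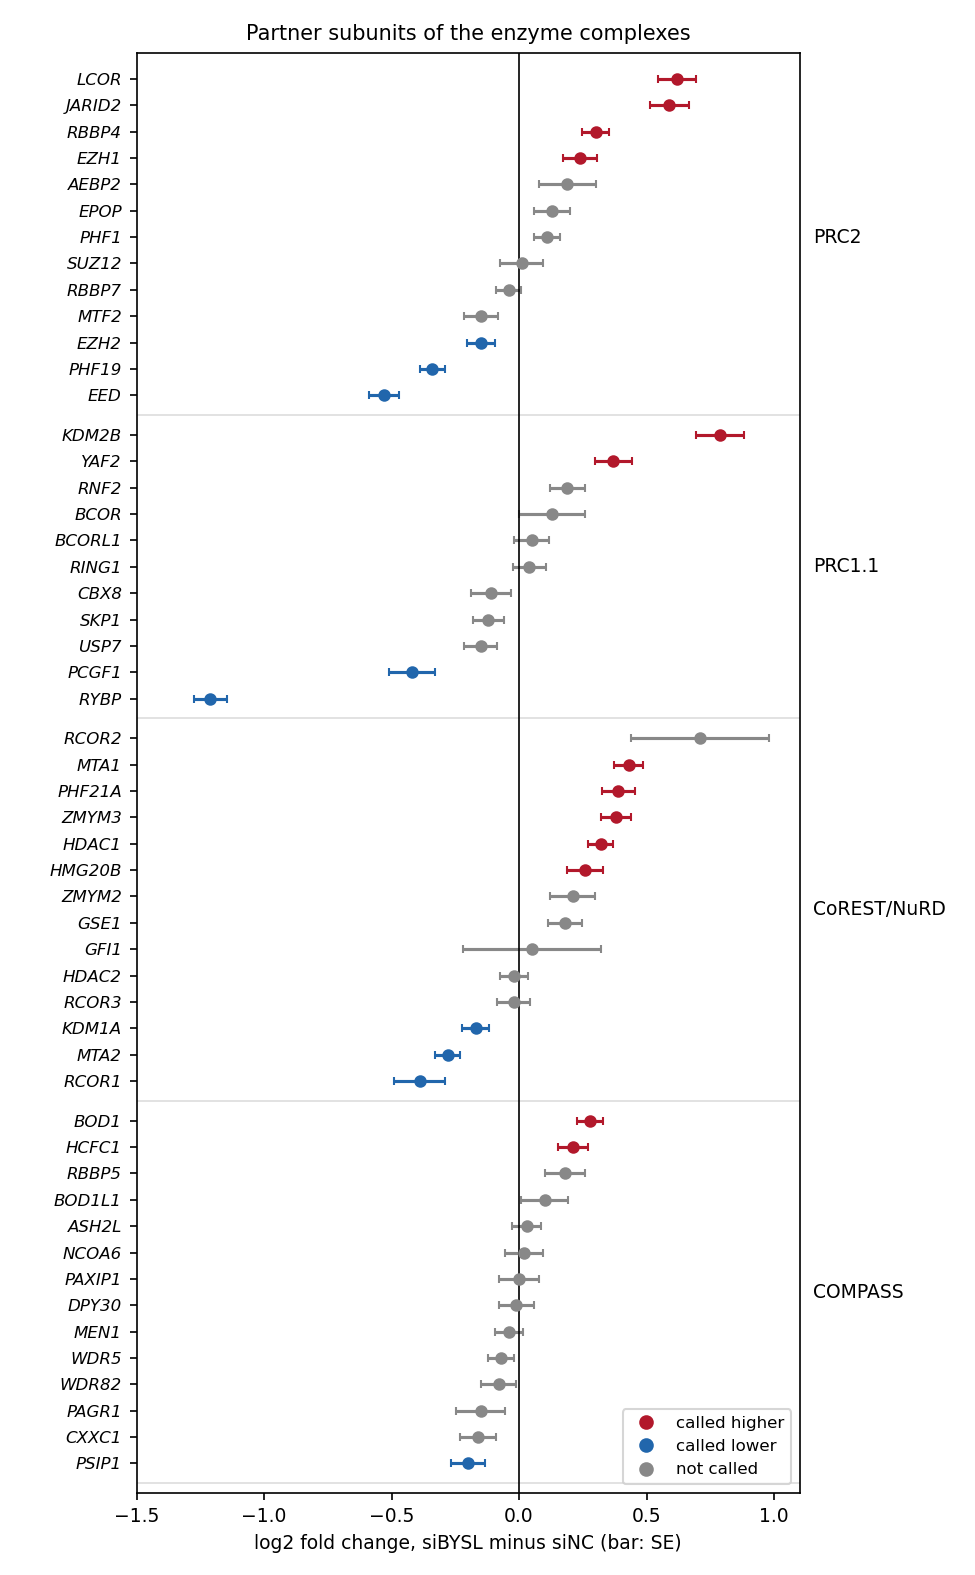
Log2 fold change (x axis, siBYSL minus siNC; bars are SE) of the tested partners of EZH1 and EZH2 (PRC2), KDM2B (PRC1.1), KDM1A (CoREST and NuRD) and the KMT2 and SETD1 enzymes (COMPASS), with the enzymes of the first 3 complexes included. RYBP lies lowest at -1.21 and KDM2B highest at 0.79, and most COMPASS subunits lie near 0.

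Demethylases of H3K27 were not called. KDM6B (JMJD3) had 8.30, 9.74 and 8.83 CPM in siNC and 11.7, 9.95 and 10.7 in siBYSL, without overlap, but missed the threshold (0.27, SE 0.098, adjusted p = 0.052). KDM6A (UTX), which sits in the KMT2C and KMT2D complexes, was at -0.13 (SE 0.13); its siBYSL values were 25.5, 23.3 and 16.6 CPM, the last from siBYSL 3. KDM7A, which acts on H3K9 and H3K27, was at -0.05. At an unadjusted p under 0.05, 1 of these 3 genes was higher, while DESeq2 and limma-voom called 0.

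In each of the KDM3 and KDM4 families, which demethylate H3K9, 1 gene rose. KDM3B had 62.2, 67.9 and 61.3 CPM in siNC and 89.5, 81.8 and 70.4 in siBYSL (0.34, SE 0.083, adjusted p = 0.0087). Its call was lost without siNC 3 (adjusted p = 0.052). KDM3A, a hypoxia-induced gene, had 36.9, 39.2 and 39.0 CPM against 36.8, 35.2 and 29.7 (-0.18, SE 0.080, adjusted p = 0.10). The ratio of KDM3A to KDM3B counts was 0.602 ± 0.030 in siNC and 0.421 ± 0.010 in siBYSL, with no overlap (exact permutation p = 0.10, again the smallest possible). KDM4B, which acts on trimethylated H3K9 and H3K36, rose from 26.3, 26.5 and 25.7 to 36.8, 31.2 and 32 CPM (0.35, SE 0.073, adjusted p = 0.0038). KDM4A was at 0.01 (SE 0.093), KDM4C at 0.14 (SE 0.16) and KDM4D, read by only 24 to 47 counts in a library, at 0.31 (SE 0.23).

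The H3K9 methyltransferases lie outside the naming rule and were examined with other lysine methyltransferase genes outside it. Of 14 such methyltransferases 2 rose and 2 fell (14.3% each, against 18.5% and 18.4% of all genes), with a median of 0.10. SUV39H1 and SUV39H2, paralogues that trimethylate H3K9 in heterochromatin, went opposite ways: SUV39H1 fell from 40.1 ± 1.2 to 34.7 ± 1.1 CPM (-0.21, adjusted p = 0.017) and SUV39H2 rose from 21.4 ± 1.9 to 30.3 ± 0.79 CPM (0.50, adjusted p = 4.4e-04). EHMT1 (GLP) rose by 0.35 (adjusted p = 0.0018), while its partner EHMT2 (G9a) stood at 0.09 and SETDB1 at 0.10. SMYD2, which also methylates p53, fell by 0.21 (adjusted p = 0.0066). The rises numbered 4 without siBYSL 3, and the fall of SUV39H1 was lost without siNC 1, siNC 2 or siBYSL 2, which left 1. Of 7 further Jumonji-type genes, 2 rose and 1 fell (28.6% and 14.3%, against 18.5% and 18.4% of all genes). PHF2, an H3K9 demethylase, rose by 0.34 and RIOX2, a ribosomal oxygenase, by 0.22. The call of RIOX2 was lost without siNC 2, siNC 3 or siBYSL 2, which left 1 rise. JMJD6, a lysyl hydroxylase, fell (-0.44, adjusted p = 0.0020).

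Of 3 methyltransferases of H4K20, 1 rose and 1 fell, and of 4 of H3K36 none was called. Of all genes, 18.5% rose and 18.4% fell. KMT5A (SET8), which adds the first methyl group to H4K20 and is cell-cycle regulated, had 80.3, 85.5 and 80.4 CPM in siNC and 73.8, 71.9 and 73.1 in siBYSL (-0.17, SE 0.051, adjusted p = 0.023). The groups were separate but close. KMT5B, which adds further methyl groups, had 28.5, 27.5 and 27.4 CPM against 33.5, 32.2 and 29.9 (0.20, SE 0.065, adjusted p = 0.034), a call lost when any library but siBYSL 3 was left out. KMT5C, with the same activity, was at -0.24 (SE 0.14, adjusted p = 0.21). Of the H3K36 enzymes, SETD2, which alone places most of the trimethyl mark, stood at 0.02 (SE 0.069), and NSD1, NSD2 and NSD3, which place the dimethyl mark, at -0.02, -0.09 and 0.07 (SEs 0.059, 0.059 and 0.079). None of these 4 was called, none had an unadjusted p under 0.05, and DESeq2 and limma-voom called 0. NSD2 had 186, 198 and 191 CPM in siNC and 194, 178 and 168 CPM in siBYSL, and the groups overlapped.

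The remaining SET-domain genes act on other proteins or have no settled histone mark. SETD3, SETD4, SETD5, SETD6, SETD9 and KMT2E ran from -0.04 to 0.19, with none called, none at an unadjusted p under 0.05 and 0 called by DESeq2 or limma-voom. KDM8, a Jumonji gene of disputed histone activity, was at 0.00 (SE 0.17) with a mean of only 3.23 CPM in siNC.

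To compare levels between genes, CPM in siNC was divided by the length of the longest annotated protein-coding transcript. EZH2 and KDM1A led, at 33.8 ± 0.18 and 33.0 ± 0.29 CPM per kb (SD, n = 3), followed by SETD3 (28 ± 0.47), KMT5A (26.1 ± 0.95) and NSD2 (22.4 ± 0.66). KDM5C (14.4 ± 0.27) and SETD5 (13.9 ± 0.48) were neighbours within their spread. KDM2A was at 10.1 ± 0.25 CPM per kb in siNC and 15.3 in siBYSL, KDM2B at 3.54 ± 0.062 and 6.11, and SETD7 at 4.74 ± 0.13 and 8.05. The lowest were KDM7A (0.551 ± 0.039) and KDM4D (0.318 ± 0.041). With the median transcript length in place of the longest, KDM7A and KDM4D were still the lowest, but NSD1, KMT2A and KMT2D came first, so the order of the upper ranks rests on the transcript assumed.

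Among 14 tested enzymes that supply or clear the small molecules used by these proteins, 4 fell and 2 rose (median -0.07). The shares were 28.6% lower and 14.3% higher, against 18.4% and 18.5% of all genes. IDH1, the cytosolic source of 2-oxoglutarate, fell to 43.1 ± 2.7 CPM from 158 ± 4.6 (-1.88); IDH1 holds 2 seed-matched heptamers. Among partner genes that rose, RBBP4 and D2HGDH hold 1 and RIOX2 holds 2. The uncalled partners SKP1 (PRC1.1) and GSE1 (LSD1 complexes) hold 3 and 1. Besides RYBP, EED and IDH1, the partners that fell hold none in the longest 3′ UTR. These are PHF19, PCGF1, MTA2, RCOR1, PSIP1, JMJD6, SMYD2, SUV39H1, AHCY, IDH3B and IDH3G. The mitochondrial subunits IDH3B and IDH3G fell by 0.27 and 0.34 and IDH3A rose by 0.18, the last a call lost when any library but siBYSL 3 was left out, while IDH2 stood at 0.17 (adjusted p = 0.059). D2HGDH, which oxidises D-2-hydroxyglutarate, an inhibitor of Jumonji enzymes, back to 2-oxoglutarate, rose from 6.17 ± 0.58 to 8.71 ± 1.3 CPM (0.50, adjusted p = 0.010), a call lost without siNC 2. On the methyl-donor side, MAT2A, which makes S-adenosylmethionine, stood at 214 ± 3.2 and 207 ± 11 CPM (-0.05, adjusted p = 0.54), and AHCY, which clears the product S-adenosylhomocysteine, fell from 225 ± 9.3 to 187 ± 9.1 CPM (-0.26, adjusted p = 0.0037). MTAP was barely detected, at 0.0582 CPM in siNC and 0.0116 in siBYSL, below the filter.

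Among the siBYSL libraries, the medians of the enzyme genes ran in the same order as those of all protein-coding genes with long transcripts. The longest transcripts of the enzyme genes ran from 1619 to 19419 bases. Against the siNC mean, their median log2 CPM was 0.148 higher in siBYSL 1 and 0.065 higher in siBYSL 2, and it stood at -0.046 in siBYSL 3. The 2300 protein-coding genes with long transcripts, which include the longer enzyme genes, gave 0.119, 0.057 and -0.055. The 1444 with longest transcripts under 1500 bases gave -0.197, -0.109 and 0.092. siBYSL 3 had the lowest CPM of the siBYSL libraries in 28 of 39 enzyme genes (71.8%), against 43.7% of all genes. With the trend on transcript length removed from each library, an analysis added after the data were seen, 8 enzyme genes were higher and 5 lower (21.8% and 21.7% of all genes). KDM2A, KDM2B and SETD7 then stood at 0.55, 0.75 and 0.71.

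**Figure D4:**
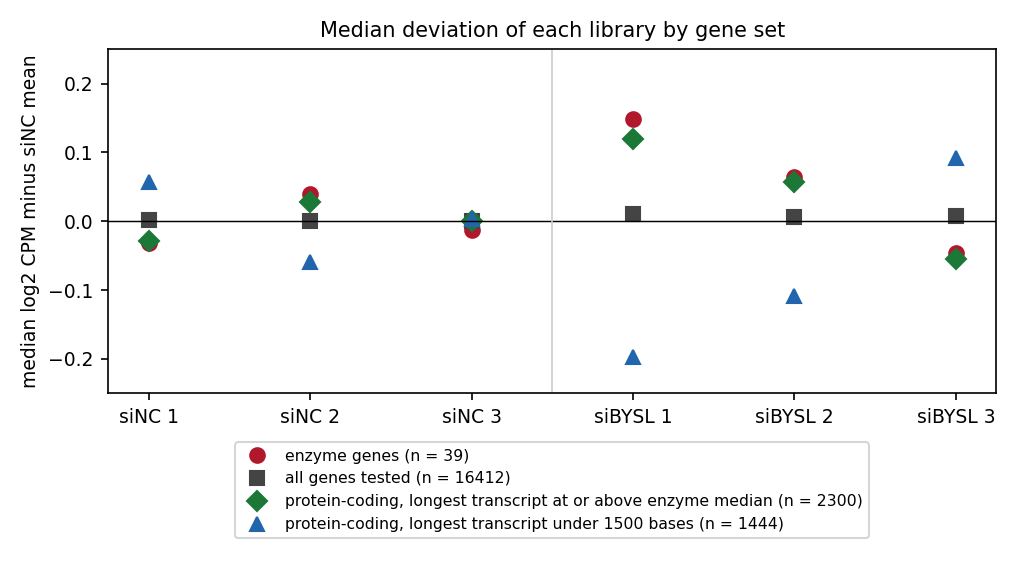
Median difference of each library from the siNC mean (y axis, log2 CPM) for the enzyme genes, all genes tested, and protein-coding genes with long or short transcripts; 1 point per library and set. The enzyme genes lie close to the long transcripts in each library, from 0.148 in siBYSL 1 to -0.046 in siBYSL 3, and short transcripts run the opposite way.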

How the data were processed

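Raw counts of 6 libraries, 1 whole number for each gene, were deposited; the submitters' processing notes name HISAT2, DESeq2 and GRCh38.p13 but no counting tool, and its strand setting and annotation are not stated there. Reads of KDM4A and KMT2E therefore cannot be told from those of their antisense genes. The labels call the samples biological replicates without saying what was separate, so p-values measure the spread between these samples, which may be technical. Genes were filtered with filterByExpr, scaled with TMM and tested by group with edgeR 4.0.16 (quasi-likelihood, robust; R 4.3.3; Benjamini-Hochberg, threshold 0.05). SE is |log2 fold change| over the root of F. Alternatives changed the scaling, the filter, the replicate term, the libraries or the tool (limma 3.58.1, DESeq2 1.42.0). Depths were 27754883 to 32088817 counts, and the common coefficient of biological variation was 0.0649. In a simulation of siBYSL against siNC with 16412 genes, 40% of genes altered 1.25-fold were called, 68% at 1.5-fold and 82% at 2-fold. There were 11 false calls among the 16212 genes left unchanged. Only 50 genes were altered at each fold, whereas 36.9% of all genes were called in the data. The Benjamini-Hochberg cut-off depends on that share, so the simulated rates do not give the power or the false calls of the real comparison. Lengths, coordinates and 3′ UTRs came from GENCODE 29 (GRCh38). The enzyme genes, lists and tests were chosen with earlier results of these data known. Every called enzyme gene was named, with all library values for those at 0.4 or more on the log2 scale and for EZH1, EZH2, KDM1A and KMT2A to KMT2D. Partner lists name up to 4 called genes with the smallest p, besides EED, SUZ12, WDR5, RCOR1, BYSL and IDH1. Other partner genes, and the library values of further enzyme genes, were added after they were seen. One listed marker gene is not reported here.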

Additional observations from a re-analysis of the deposited data

How the results depend on the processing

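The 11 called enzyme genes and the called partner genes named above kept their sign in every setting tried. Leaving out 1 library gave 5 to 13 enzyme genes higher and 0 to 3 lower. The ranges for partners were 1 to 4 higher and 0 to 2 lower for COMPASS, 1 to 2 lower for LSD1 complexes, 1 to 3 higher for PRC1.1, 2 to 4 higher and 1 to 2 lower for the other methyltransferases, 1 to 2 higher for the other demethylases and 0 to 3 higher for cofactor enzymes. Library totals gave 1989 genes lower in all, 0 enzyme genes lower, 5 PRC2, 8 LSD1, 2 PRC1.1 and 5 other methyltransferase genes higher, and 0 COMPASS and 0 other methyltransferase genes lower. Upper-quartile factors gave 0 enzyme genes and 0 COMPASS genes lower and 8 LSD1 and 2 PRC1.1 genes higher. The stricter filter gave 2 PRC1.1 genes higher. No filter and the DESeq2 test each gave 1 cofactor gene higher. With the length trend removed, added after the data were seen, 5 enzyme genes were lower, with NSD2 (-0.14) and KDM3A (-0.21) joining, and 2 PRC1.1 genes were higher. The median siNC level of the enzyme genes was 4.26 CPM per kb with the longest transcript and 12.2 with the median transcript length. The cause of these shifts was not tested.

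Samples with the same replicate number did not deviate together (r = -0.129, 0.0596 and 0.0106 across genes), and of the 6 samples siNC 3 and siBYSL 2 correlated best with their own number. With the number as a replicate block, 7 enzyme genes were higher and 0 lower (4 at an unadjusted p under 0.05), and 1 cofactor gene was higher. Depth limited genes such as KDM4D, with 24 to 47 counts in a library.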

Other observations

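Rows of the table that share a name with these enzymes but are not protein-coding were outside the analysis above. The antisense genes KDM4A-AS1 (1.99 ± 0.34 CPM in siNC and 2.05 ± 0.26 in siBYSL) and KMT2E-AS1 (2.14 ± 0.43 and 2.51 ± 0.36) and the divergent transcript KDM7A-DT (1.35 ± 0.26 and 1.40 ± 0.13) were detected in every library (SD, n = 3 each). KDM2B-DT, the divergent transcript named for KDM2B, held only 1 to 4 counts in a library (0.0708 CPM in siNC and 0.0866 in siBYSL). Pseudogene rows of EZH2 and KMT5A (EZH2P1, KMT5AP1 and KMT5AP2) held at most 2 counts in any library.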
